A study of Mus musculus with 6 samples.

Results

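The genes described here encode the receptor chains and first signalling steps of the common gamma chain cytokines. They are 10 genes, taken by symbol from the 55414 genes of the deposited table: the receptor chains Il2rg, Il2rb, Il2ra, Il15ra, Il7r, Il21r and Il4ra, the kinase Jak3, and the transcription factors Stat5a and Stat5b. All 10 were found once, and all 10 passed the filter on low counts. Messenger RNA was sequenced from natural killer (NK) cells of the liver of wild-type mice in 6 libraries taken on day 3. The 3 control libraries came from mice given phosphate-buffered saline (PBS), and the 3 treated libraries from animals that received 200 mg per kg of metformin, a drug that lowers blood glucose, for 3 days. Strain, age, sex and the gate used to isolate the cells are not given in the sources used here, nor is it known whether each library is 1 mouse. The p-values therefore measure only the spread between these libraries, which may be technical.

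Interleukins 2, 4, 7, 9, 15 and 21 signal through receptors that share the common gamma chain, the product of Il2rg. Other chains give each receptor its ligand: IL-2 and IL-15 share the beta chain Il2rb, Il2ra and Il15ra set these cytokines apart, and Il7r, Il21r and Il4ra bind IL-7, IL-21 and IL-4. Outside the family, Il7r also serves TSLP and Il4ra serves IL-13, with other partners. Ligand binding brings together JAK1, on Il2rb, Il7r, Il21r or Il4ra, and JAK3, on the gamma chain. These kinases phosphorylate STAT proteins, of which STAT5A and STAT5B carry most of the IL-2, IL-7 and IL-15 signal. In NK cells IL-15 is needed for survival, and Il7r is low on most conventional NK cells and found on some liver innate lymphocytes and on T cells.

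The libraries held 22152167 to 30161214 estimated reads. Levels are given as CPM, reads scaled to a common library size with TMM factors for composition, and values per library are listed in the order of the library numbers 1 to 3. All 16 markers of conventional NK cells averaged at least 1 CPM, and their sum was 16397 to 17891 CPM per library. However, 9 of them were lower and 1, Gzmb, higher with metformin at an unadjusted edgeR p under 0.05. The shares over all genes tested were 5.08% lower and 5.29% higher. Without Gzmb, which averaged 2383 CPM in the controls and 3345 CPM after metformin, the other 15 summed to 14685 to 15103 CPM in the controls and to 13588 to 14046 CPM after metformin, with no overlap. The library metformin 3 stood apart, at 79.2 on the first principal component, against -40.8 to 15.2 in the other 5 libraries. Mitochondrial genes took 0.720% of its reads, and 0.429% to 0.515% elsewhere. Its log2 CPM, centred on each gene's mean, was lower in longer genes (Spearman correlation across genes, which are not independent replicates, -0.420, against -0.112 to 0.321 elsewhere). Values without metformin 3, and with the length trend removed, are given below where they differ.

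Il7r and Il21r had the clearest differences among the 10 genes: Il7r averaged 46.4 CPM in the controls and 77.6 CPM after metformin, and Il21r 267 and 347 CPM. The shared chains Il2rb and Il2rg, the most abundant of the set, had 95% intervals that included 0 with all 6 libraries. Stat5b averaged 170 CPM in the controls and 134 CPM after metformin, a log2 fold change of -0.34 that was -0.16 without metformin 3. With p adjusted over the 15527 genes tested, none of the 10 passed 0.05 in edgeR's quasi-likelihood test. That test called 0 genes in all (0%), with a smallest adjusted p of 0.125, limma-voom also called 0, and DESeq2 called 299 (1.93%), Il7r and Il21r among them.

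At an unadjusted p under 0.05 edgeR gave 3 of the 10 genes, all higher (Il7r, Il21r and Il15ra), where 821 of all genes tested (5.29%) were higher and 789 (5.08%) lower. Every metformin library lay above every PBS library in CPM for 3 of the 10 (Il7r, Il21r and Il2rg), against 9.49% of all genes, and below for 1 (Stat5b), against 9.63%. Of the 10 fold changes 7 were above 0 and 3 below, and their median log2 fold change was 0.13, against 0.01 over all genes tested. On the deposited TPM, values scaled per gene length and to a fixed total, the median of the 10 was 0.0031, with a median of -0.085 over all genes.

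**Figure D1:**
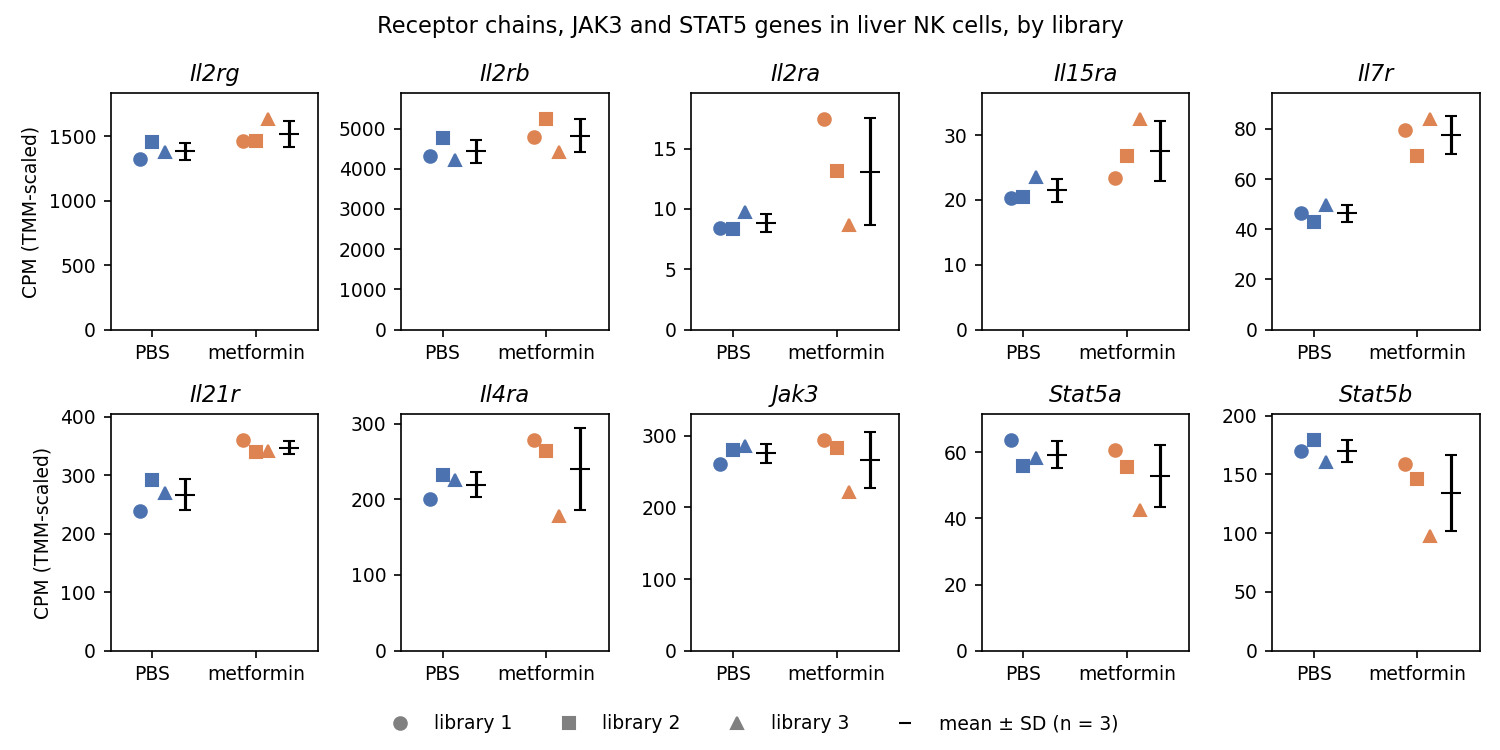
TMM-scaled CPM (vertical axes, each from 0) of the 10 genes in each of 3 PBS (blue) and 3 metformin (orange) libraries, with black bars for mean ± SD. Il7r and Il21r lie higher in all 3 metformin libraries, while metformin 3 (triangle) is the lowest of the 6 libraries for Il4ra, Jak3, Stat5a and Stat5b.

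Levels of different genes were compared in TPM, which accounts for gene length. Il2rb led, at 2379 ± 165 TPM with PBS and 2367 ± 307 TPM with metformin (SD, n = 3 each, as in all means that follow). Il2rg followed at 1454 ± 86.4 and 1450 ± 37.2 TPM. Both chains thus stood far above the private chains. Il21r came next, at 174 ± 18.8 TPM with PBS and 207 ± 13.4 TPM with metformin. In the PBS libraries Jak3 followed (112 TPM), then Il4ra (80.0 TPM), Stat5b (52.7 TPM), Stat5a (27.7 TPM), Il7r (26.9 TPM), Il15ra (26.6 TPM) and Il2ra (3.33 TPM). Neighbours in this order did not overlap between libraries, except that Stat5a overlapped Il7r and Il7r overlapped Il15ra. With metformin Il7r, at 42.2 TPM, came sixth, above Stat5b, whose range it overlapped. There Jak3 also overlapped Il4ra, and Stat5b overlapped Il15ra.

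**Figure D2:**
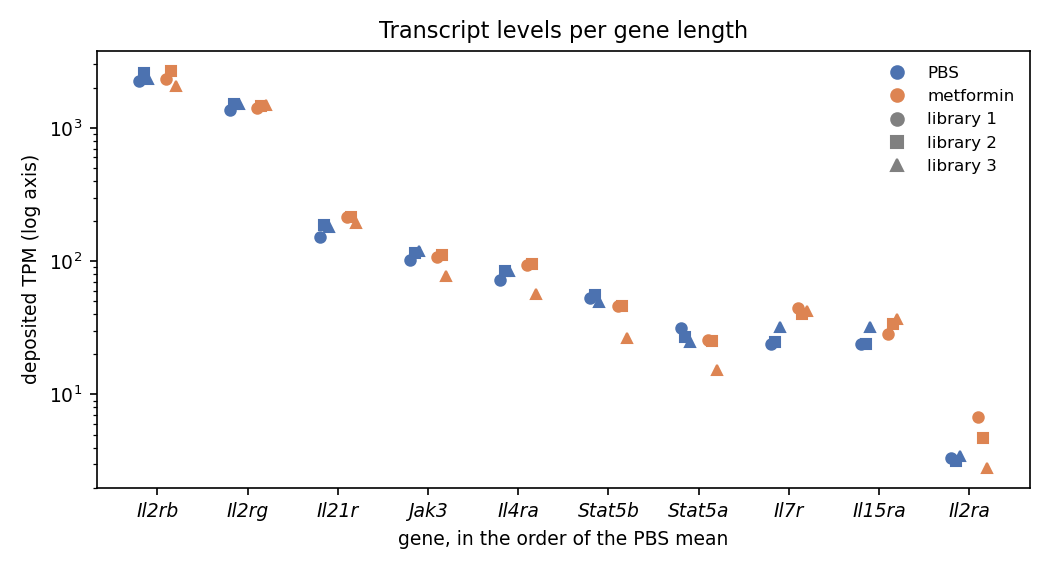
Deposited TPM (vertical axis, log scale) of the 10 genes in the order of their PBS mean, with 3 PBS (blue) and 3 metformin (orange) libraries each. The levels run from about 3.33 TPM for Il2ra to 2379 TPM for Il2rb in the PBS libraries.

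Among the 7 receptor chains, Il2rb and Il2rg together made up most of the TPM. Il2rb held 57.4 ± 1.24% of their summed TPM with PBS and 56.4 ± 2.96% with metformin, and Il2rg 35.1 ± 0.856% and 34.8 ± 3.04%. Il21r held 3.93%, 4.27% and 4.34% in the control libraries and 5.22%, 4.71% and 4.93% in the treated libraries. Il7r held 0.617%, 0.566% and 0.765% in the PBS libraries and 1.08%, 0.878% and 1.09% in the metformin libraries. The shares of Il21r and Il7r were thus higher in every metformin library than in every PBS library, and those of the other 5 chains overlapped. The ratio of Il2rb to Il2rg in TPM was 1.64 ± 0.0742 with PBS and 1.63 ± 0.222 with metformin.

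Il7r encodes the alpha chain of the IL-7 receptor, which also forms the receptor of TSLP with the product of Crlf2. In the table it lies on chromosome 15, from 9505874 to 9530262, on the minus strand (ENSMUSG00000003882.6). Its levels were 46.6, 42.9 and 49.7 CPM in the control libraries, and 79.4, 69.3 and 84.0 CPM in the treated libraries. The groups did not overlap, and the lowest metformin library was well above the highest PBS library. The log2 fold change was 0.74 (SE 0.11, 95% interval 0.48 to 1.00; edgeR adjusted p = 0.168, unadjusted p = 0.000169). By p it ranked 14 among all genes tested. DESeq2 called Il7r (log2 fold change 0.73, adjusted p = 2.96e-05), and over all 15 alternatives the log2 fold change was 0.64 to 0.81, with adjusted p from 2.96e-05 to 0.576. It was 0.67 without metformin 3 and 0.80 with the length trend removed.

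Il21r encodes the private chain of the receptor for IL-21, a cytokine made by activated T cells. The table places it on chromosome 7, from 125202601 to 125232742, on the plus strand (ENSMUSG00000030745.10). It stood at 239, 291 and 270 CPM in the control libraries and at 360, 340 and 341 CPM in the treated libraries. Every metformin library was higher than every PBS library. The log2 fold change was 0.38 (SE 0.10, 95% interval 0.15 to 0.62; edgeR adjusted p = 0.312, unadjusted p = 0.00562). DESeq2 called it narrowly (log2 fold change 0.37, adjusted p = 0.0464), with adjusted p of 0.0464 to 0.655 over the alternatives. Its log2 fold change was 0.39 without metformin 3, 0.30 without PBS 1, 0.45 without PBS 2 and 0.26 on the deposited TPM, where PBS 2 (188 TPM) came close to metformin 3 (192 TPM).

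The 250 bases upstream of the annotated start are shown for Il7r, Il21r and Il2rg, the receptor chains whose CPM was higher in every metformin library than in every PBS library. The sequences are from RefSeq on GRCm38.p6, a build that differs from that of the table's coordinates, and 9 of the 10 genes matched its promoter table, with 12 windows. Capitals mark matches to motifs of transcription factors that act in lymphocytes: TTCNNNGAA for STAT5, GTAAACA for FOXO, AGATAA for GATA and ACCGGAAG for ETS, each searched on both strands, with no overlap between the matches shown.
Il7r (chr15:9529877-9530126, minus strand): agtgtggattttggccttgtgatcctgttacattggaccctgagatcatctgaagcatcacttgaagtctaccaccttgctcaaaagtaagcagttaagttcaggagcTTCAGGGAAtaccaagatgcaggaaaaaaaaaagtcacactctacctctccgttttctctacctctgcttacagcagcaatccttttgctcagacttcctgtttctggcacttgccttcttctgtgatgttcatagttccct
Il21r (chr7:125603179-125603428, plus strand): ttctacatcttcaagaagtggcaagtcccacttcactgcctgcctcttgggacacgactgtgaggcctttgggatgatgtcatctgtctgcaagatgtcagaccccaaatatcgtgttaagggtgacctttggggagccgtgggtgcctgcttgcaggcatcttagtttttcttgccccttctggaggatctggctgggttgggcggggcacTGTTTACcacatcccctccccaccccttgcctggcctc
Il2rg (chrX:101268256-101268505, minus strand): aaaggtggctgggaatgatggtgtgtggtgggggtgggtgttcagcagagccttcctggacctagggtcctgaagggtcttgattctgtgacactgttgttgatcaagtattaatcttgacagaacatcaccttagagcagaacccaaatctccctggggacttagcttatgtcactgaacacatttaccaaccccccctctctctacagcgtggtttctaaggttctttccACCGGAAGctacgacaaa
The Il7r window held 1 match to the STAT5 motif, starting 142 bases before the start, a motif found in 7.02% of all 32851 windows. That of Il21r held 1 match to the FOXO motif, on the reverse strand and 38 bases before the start, which 3.17% of windows hold. The window of Il2rg held 1 match to the ETS motif, 18 bases before the start, which 1.72% of windows hold. The other 9 windows of the set held none of the 4 motifs, and the GATA motif, found in 9.99% of all windows, was in none of the 12. A match is a string of letters and not a measured binding site. In GENCODE M21, also on GRCm38, an exon of a noncoding Il7r transcript covers 86 bases of the Il7r window, and a transcript of another gene, Gm20489, spans that of Il2rg. The table lists Gm20489 at 0 to 2.45 estimated reads per library.

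Il2ra encodes CD25, the alpha chain that raises the affinity of the receptor for IL-2. It was the least abundant gene of the set, with 197 to 399 estimated reads per library. Its levels were 8.43, 8.37 and 9.72 CPM in the control libraries and 17.5, 13.2 and 8.63 CPM in the treated libraries. The first and second metformin libraries were above all PBS libraries and the third was within their range. This gave a log2 fold change of 0.57 (SE 0.26, 95% interval -0.04 to 1.17; edgeR adjusted p = 0.4995). It was 0.79 without metformin 3 and 0.30 without metformin 1, so that single libraries set its size.

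Il15ra encodes the chain that holds IL-15 and presents it in trans to cells with the beta and gamma chains. Its levels were 20.3, 20.5 and 23.6 CPM with PBS and 23.4, 26.8 and 32.5 CPM with metformin, in the order of the library numbers. PBS 3 was just above metformin 1, so the groups overlapped. On the log2 scale the difference was 0.36 (SE 0.15, 95% interval 0.01 to 0.71; edgeR adjusted p = 0.475), and 0.22 without metformin 3.

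Il4ra encodes the IL-4 receptor chain. It stood at 201, 233 and 225 CPM in the controls and at 279, 264 and 178 CPM after metformin. The first and second metformin libraries were the highest of the 6 and the third was the lowest. edgeR's log2 fold change for Il4ra was 0.13 (SE 0.17, 95% interval -0.26 to 0.52; edgeR adjusted p = 0.797). Without metformin 3 it was 0.30 (edgeR adjusted p = 0.213), without metformin 1 it was 0.0025, without metformin 2 it was 0.054, and with the length trend removed it was 0.24. Its gene length, 5256 bases in the table, is the longest of the set.

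Il2rb encodes CD122, the beta chain through which IL-15 sustains NK cells, and it was the most abundant of the 10 genes. Its levels were 4308, 4754 and 4229 CPM in the control libraries and 4779, 5242 and 4424 CPM in the treated libraries. These ranges overlapped. For Il2rb the log2 fold change was 0.12 (SE 0.10, 95% interval -0.10 to 0.34; edgeR adjusted p = 0.669). It was 0.20 with the length trend removed (edgeR unadjusted p = 0.018, adjusted p = 0.398), 0.17 without metformin 3 (edgeR unadjusted p = 0.043, adjusted p = 0.412), 0.05 without metformin 2 and -0.013 on the deposited TPM.

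Il2rg, the gamma chain itself, stood at 1322, 1453 and 1377 CPM in the controls and at 1464, 1459 and 1634 CPM after metformin. The groups did not overlap, but PBS 2 lay just below metformin 2. For Il2rg it came to a log2 fold change of 0.13 (SE 0.09, 95% interval -0.07 to 0.34; edgeR adjusted p = 0.626), 0.07 without metformin 3, 0.03 with the length trend removed and -0.0021 on the deposited TPM, where the groups overlapped. At 1670 bases it is the shortest gene of the set.

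Jak3 encodes the kinase bound to the gamma chain. Its levels were 261, 280 and 285 CPM with PBS and 295, 283 and 222 CPM with metformin, and metformin 3 alone was below the PBS libraries. Jak3 had a log2 fold change of -0.05 (SE 0.12, 95% interval -0.33 to 0.24; edgeR adjusted p = 0.903), and its sign turned without metformin 3 (0.06) and with the length trend removed (0.02).

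Stat5b encodes the STAT5 protein known as the more needed of the pair in NK cells. Its levels were 170, 179 and 161 CPM in the control libraries and 159, 146 and 97.7 CPM in the treated libraries. The groups did not overlap, though metformin 1 was close to PBS 3 and metformin 3 was far below the rest. The log2 fold change was -0.34 (SE 0.17, 95% interval -0.74 to 0.06; edgeR adjusted p = 0.528), the largest difference downward in the set. It was -0.16 without metformin 3 and -0.23 with the length trend removed. Stat5a, its close paralog, stood at 63.8, 55.9 and 58.2 CPM in the controls and at 60.6, 55.4 and 42.5 CPM after metformin. Those ranges overlapped. Its log2 fold change was -0.17 (SE 0.14, 95% interval -0.49 to 0.16; edgeR adjusted p = 0.694), -0.04 without metformin 3, -0.10 with the length trend removed, -0.28 without metformin 1 and -0.35 on the deposited TPM. The ratio of Stat5b to Stat5a in TPM was 1.92 ± 0.216 with PBS and 1.78 ± 0.0523 with metformin.

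**Figure D3:**
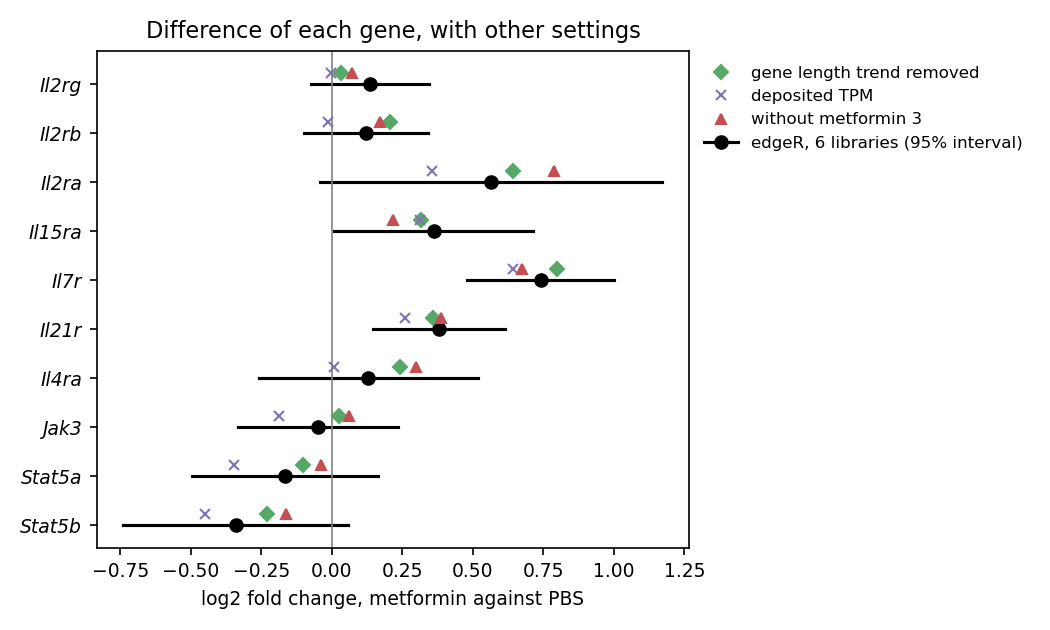
Log2 fold change of metformin against PBS (horizontal axis) for the 10 genes, as edgeR estimates with 95% intervals (black) and as estimates with the length trend removed (green), on the deposited TPM (purple) and without metformin 3 (red). The intervals of Il7r (0.48 to 1.00), Il21r (0.15 to 0.62) and Il15ra (0.01 to 0.71) lie above 0 before adjustment, and those of the other 7 genes include it.

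Without metformin 3, 5 of the 10 genes had an unadjusted edgeR p under 0.05, all higher (Il2ra, Il2rb, Il7r, Il21r and Il4ra), and 0 lower, where 4.9% of the 16058 genes tested in that fit were higher and 6.51% lower. None of the 10 passed after adjustment over all genes there either. Estimated counts were whole numbers in every library for 5 genes (Il2ra, Il2rb, Il7r, Il21r and Il15ra, within 0.005), fractional in every library for Il4ra, Stat5a and Stat5b, and fractional in some for Jak3 and Il2rg. The sources used here do not say how reads that match both genes were counted, so the levels of Stat5a and Stat5b, close paralogs with fractional estimates, are uncertain.

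The genes of the set lie partly side by side. Il2ra and Il15ra are neighbours on chromosome 2, in the same orientation and 12.1 kb apart, with 0 genes of the table lying wholly between them. Il4ra and Il21r are neighbours on chromosome 7, in the same orientation and 24.0 kb apart, and Stat5b and Stat5a lie head to head on chromosome 11, 8.6 kb apart, again with 0 genes between. The ratio of Il21r to Il4ra in TPM was 2.12, 2.24 and 2.14 in the PBS libraries and 2.29, 2.23 and 3.36 in the metformin libraries. It was thus nearly even in 5 libraries and higher in metformin 3. The ratio of Il15ra to Il2ra varied more, at 7.19, 7.51 and 9.15 with PBS and 4.19, 7.14 and 13.2 with metformin.

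Markers of other cells that can carry Il7r and Il21r were measured beside them. With Il7r and Il21r left out, the 13 other genes of a list of liver type 1 innate lymphoid cell (ILC1) markers summed to 1756 to 1941 CPM with PBS and to 2624 to 3180 CPM with metformin (two-sided exact permutation test over libraries, p = 0.1, a design of 3 against 3 allowing no smaller value). Of these, 12 were higher in every metformin library than in every PBS library, against 9.49% of all genes tested. But the list was drawn up with earlier results of these data known. The 16 T cell markers other than Il7r summed to 1060 to 1221 CPM with PBS and 1574 to 1819 CPM with metformin (exact permutation p = 0.1). At an unadjusted edgeR p under 0.05, 6 of them were higher and 2 lower, against 5.29% and 5.08% of all genes tested. Cd3g, which is on both lists, averaged 303 CPM in the controls and 553 CPM after metformin. Without it the sums of both lists still did not overlap between groups. The most abundant genes then left in the T cell list were Trbc1 and Trbc2. Trbc1 stood at 289, 297 and 289 CPM with PBS and 385, 371 and 479 CPM with metformin. For Trbc2 the values were 164, 190 and 186 CPM, and 296, 232 and 310 CPM. In PBS 1 Cd3e stood at 6.92 CPM and Trac at 8.43 CPM. With Trbc1 and Trbc2 also left out, the T cell sum overlapped between groups, with metformin 3 below PBS 2 and PBS 3. All 13 and all 16 genes averaged at least 1 CPM. The 8 genes of a T cell restricted list, Trac and Cd4 among them, overlapped between groups in their sum (exact permutation p = 0.3). It was 70.6, 114 and 142 CPM in the PBS libraries and 246, 175 and 110 CPM in the metformin libraries. Cd28, also on this list, varied little, at 46.4, 50.5 and 50.7 CPM with PBS and 51.0, 41.0 and 48.7 CPM with metformin. Trac varied more, at 8.43, 23.0 and 32.8 CPM with PBS and 74.1, 50.1 and 21.4 CPM with metformin. Metformin 3 had the highest Il7r, 84.0 CPM, with a T cell restricted sum below those of PBS 2 and PBS 3. Metformin 1 and metformin 2, with Il7r at 79.4 and 69.3 CPM, had T cell restricted sums above those of all PBS libraries. Within the metformin libraries Il2ra was highest in metformin 1 and lowest in metformin 3, as the T cell restricted sum was. Within the PBS libraries Il2ra stood at 8.43, 8.37 and 9.72 CPM, where that sum was 70.6, 114 and 142 CPM. The regulatory T cell markers other than Il2ra summed to 14.6 to 20.1 CPM with PBS and 17.1 to 22.9 CPM with metformin, with Foxp3, their defining factor, under 1 CPM in every library. The part of these cells in the differences of Il7r, Il21r and Il2ra was not tested. In bulk libraries, a change in the share of cells of a type and a change in RNA per cell cannot be told apart.

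Of all 14 marker lists, without genes of the set, 2 (ILC1 and T cells) summed higher in every metformin library. The sums of 3 lists were lower in every metformin library, and in each of these 1 gene carried the difference. In the ILC2 list it was Klrg1, also a conventional NK cell marker, which averaged 225 CPM in the controls and 178 CPM after metformin, while the other 9 genes summed to 173 ± 4.92 and 173 ± 2.59 CPM. In the ILC3 list it was Kit, at 87.3 and 41.5 CPM, beside 8.52 ± 2.15 and 8.85 ± 2.04 CPM for the other 6 genes. In the dendritic cell list it was Itgax, at 507 and 424 CPM, beside 77.3 ± 10.6 and 71.2 ± 15.2 CPM for the other 7, and 0 of its 8 genes had an unadjusted edgeR p under 0.05. The remaining 9 lists overlapped. Among these, 5 of the 10 tested monocyte and Kupffer cell markers were higher and 1 lower at an unadjusted edgeR p under 0.05. The shares over all genes tested were 5.29% and 5.08%. The list median log2 fold change was 1.47. The monocyte and Kupffer cell sum was 237 to 401 CPM in the controls and 296, 250 and 683 CPM in the treated libraries. That of the hepatocyte markers was 237 to 349 CPM and 285, 259 and 640 CPM, with metformin 3 highest in both sums. The part of these cells in the values of the 10 genes was not tested. Of the defining genes of ILC2 and ILC3, innate lymphocytes that can carry Il7r, Il5 and Il13 of ILC2 and Il22 and Il17a of ILC3 were under 1 CPM, the last pair listed at 0 in every library.

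The other genes of the pathway were taken from 6 lists with 77 genes, of which 72 were tested and 0 passed at an adjusted p of 0.05 (edgeR). Beside the counts by list that follow, 5.29% of all genes tested were higher and 5.08% lower at an unadjusted p under 0.05. Of the 8 ligands 4 passed the filter, and 1 of them, Il2, was higher at an unadjusted p under 0.05, at 3.57 to 4.94 CPM in the controls and 5.67 to 11.7 CPM in the treated libraries. Its log2 fold change was 0.85 (SE 0.34; edgeR adjusted p = 0.462), and 0.41 without metformin 3, the library with 11.7 CPM. Il15 averaged 7.87 CPM in the controls and 6.46 CPM after metformin (log2 fold change -0.28, SE 0.22). The median of the 4 tested ligands was 0.15, and it turned to -0.41 without metformin 1, -0.01 without PBS 1, -0.02 without metformin 3, -0.06 with the length trend removed, -0.16 on the deposited TPM, -0.09 with the replicate block and -0.21 with limma-voom.

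Of the 4 partner receptors 3 were tested, with a median of 0.17. Crlf2, which pairs with the Il7r chain to bind TSLP, averaged 25.6 CPM in the controls and 28.8 CPM after metformin (log2 fold change 0.17, SE 0.13, and 0.04 with the length trend removed). For Il13ra1 the means were 7.67 CPM in the controls and 7.23 CPM after metformin, a log2 fold change of -0.08 with an SE of 0.33, whose sign turned with limma-voom and without PBS 2 or metformin 3. The third, Il9r, named after its values were seen, had an unadjusted p under 0.05 but at most 2.80 CPM in any library.

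Among the 8 other JAK and STAT genes 0 were higher and 1 lower at an unadjusted p under 0.05, with a median log2 fold change of -0.16. It was Jak1, the kinase that pairs with JAK3 on these receptors, at 1899 to 2003 CPM with PBS and 1286 to 1733 CPM with metformin (log2 fold change -0.32, SE 0.12; edgeR adjusted p = 0.459). Without metformin 3 the value of Jak1 was -0.20 and the median of the list -0.03.

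Of the 18 brakes on cytokine signalling 3 were higher at an unadjusted p under 0.05 (Socs2, Socs1 and Cish) and 0 lower, with a list median of -0.07 (-0.16 on the deposited TPM). Socs2, a feedback inhibitor induced by STAT5, stood at 51.2, 62.4 and 61.5 CPM in the controls and at 90.2, 89.7 and 116 CPM after metformin. Its log2 fold change was 0.76 (SE 0.14; edgeR adjusted p = 0.196), and 0.62 without metformin 3. DESeq2 called Socs2 (adjusted p = 0.000447). Ptprc, the phosphatase CD45, averaged 3006 CPM in the controls and 2504 CPM after metformin (log2 fold change -0.26, SE 0.12, and -0.13 with the length trend removed, -0.16 without metformin 3).

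Of 18 STAT5 target genes, which include Socs2, Socs1 and Cish, 5 were higher and 1 lower at an unadjusted p under 0.05. The shares over all genes tested were 5.29% higher and 5.08% lower. The list median was 0.16, or 0.02 on the deposited TPM. Mcl1, a survival factor of NK cells, was the one lower, at 491 ± 7.47 CPM in the controls and 408 ± 25.4 CPM after metformin (log2 fold change -0.26, SE 0.09; edgeR adjusted p = 0.414). Bcl2, also a survival factor, was among the 5 higher, at 373 ± 26.4 and 502 ± 65.7 CPM (log2 fold change 0.43, SE 0.12; edgeR adjusted p = 0.332). Of the 25 genes of the RAS-MAPK and PI3K arm, 0 were higher and 4 lower, with a median of -0.16, or -0.07 without metformin 3 and -0.06 with the length trend removed. Pik3cb, a catalytic subunit of PI3 kinase, went from 90.8 to 52.2 CPM (log2 fold change -0.80, SE 0.18; edgeR adjusted p = 0.261; DESeq2 adjusted p = 0.00339).

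**Figure D4:**
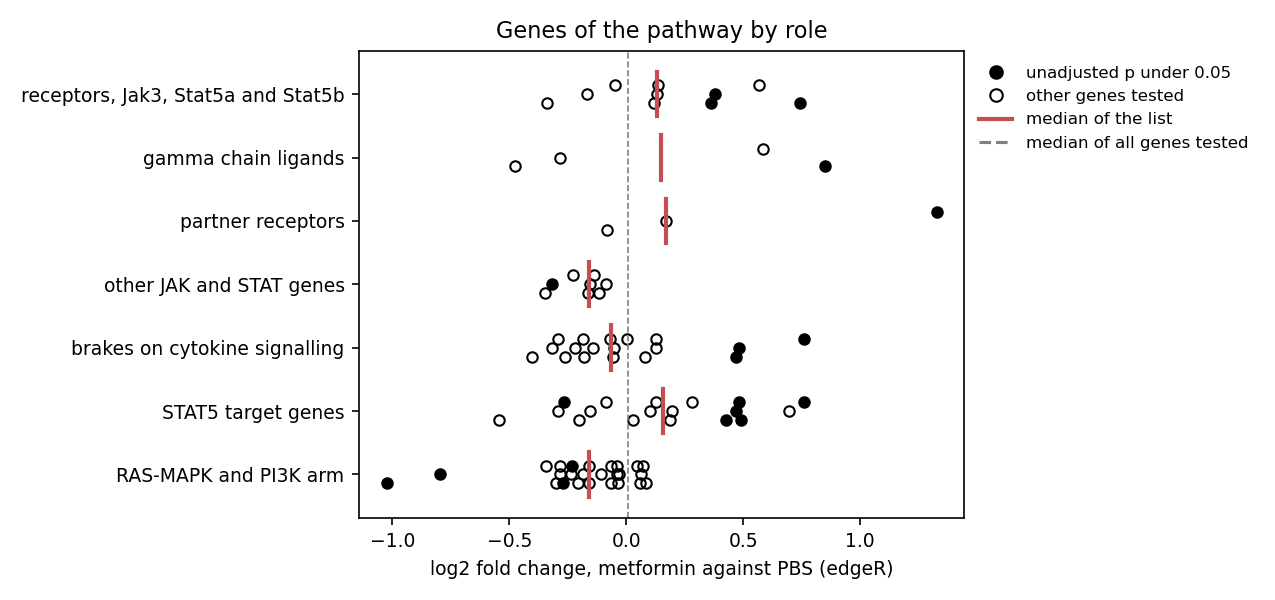
Log2 fold change of metformin against PBS (horizontal axis, edgeR) for the 10 genes and for the tested genes of 6 pathway lists, with filled points for an unadjusted p under 0.05, red bars for list medians and a dashed line for the median of all genes tested. Medians run from -0.16 to 0.17, and the 3 brakes with filled points (Socs2, Socs1 and Cish) lie at the high end of their list.

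The genes most like Il7r and Stat5b in their pattern over the 6 libraries were sought among 9875 other protein-coding genes with a mean of at least 5 CPM, by the root mean square difference of log2 CPM centred on each gene's mean. For Il7r they were Gm9803 (0.0711), Zmat4 (0.0797) and Gm12216 (0.0891), against a median of 0.433 over all candidates. For Stat5b they included Cand1, a regulator of cullin ubiquitin ligases (0.0230), and Washc5, a subunit of the WASH complex of endosomes (0.0319), against a median of 0.314. With so many genes and 6 libraries, close matches of this kind are a description only.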

How the data were processed

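Total RNA of liver NK cells was made into libraries with SMART-seq mRNA chemistry, per the labels' protocols, and GRCm39, mm10 and DRAGEN appear in the submitters' processing notes, which give neither their roles nor a version. The authors deposited 1 table with an estimated count per gene and library, neither normalized nor always whole, beside TPM that the authors computed. Annotation, strand setting and filters are not given in the sources used here.

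Estimated counts were rounded and tested with edgeR 4.0.16 (glmQLFit, glmQLFTest, TMM, filterByExpr, no covariate) in R 4.3.3 over all 15527 genes left by the filter, with Benjamini-Hochberg adjustment. Standard errors were taken from the unshrunken coefficient and the F statistic. DESeq2 1.42.0, limma 3.58.1 (voom, and limma-trend on log2(TPM + 1)), other scalings and filters, a lowess trend on gene length (span 0.3), a replicate block and each library left out were tried. Scripts were tested on simulated data. Between libraries of one group the chi-square per degree of freedom was 14.8 to 63.9, above counting noise, and highest in pairs with metformin 3. Each library was kept as a replicate. Separate preparations of the same cells could also exceed counting noise, so these values cannot show whether the libraries are separate animals.

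The 10 genes and all lists were chosen with earlier results of these data known. Named genes were the 10, per pathway list the gene with the smallest p in each direction (mean of at least 5 CPM), and the 3 genes most like the member with the smallest p in each direction. Any other gene was named with its values in view. Of the genes this rule names, 2 are not reported here.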

Additional observations from a re-analysis of the deposited data

How the results depend on the processing

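Of 150 values of the 10 genes under 15 alternatives each, 144 kept their direction and their side of the threshold. DESeq2 called 2 of them, Il7r and Il21r (log2 fold change 0.73 and 0.37), and 299 genes in all. The sign turned 4 times: on the deposited TPM for Il2rb (-0.013) and Il2rg (-0.0021), and for Jak3 with the length trend removed (0.025) and without metformin 3 (0.062; -0.13 to 0.062 with 1 library left out). The number of genes called over the whole table was 1 without a filter, 1 with the length trend removed, and 0 to 1 with 1 library left out (1 without metformin 3). None of these calls was among the 10 genes. For the named genes of the pathway and the lists, these alternatives were added after the data were seen: Il13ra1 turned from -0.08 to 0.027 with limma-voom, and ranged from -0.32 to 0.35 with 1 library left out (0.35 without PBS 2, 0.02 without metformin 3). The cause was not tested. The marker sums without their leading gene, and the T cell sum without Trbc1 and Trbc2, were likewise added after the data were seen.

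With the replicate number as a block, 3 genes were called over the whole table and 0 of the 10. At an unadjusted edgeR p under 0.05 the block gave 4 of the 10, and 1536 of all 15527 genes tested. Il7r, Il21r and Il15ra were higher, and Stat5b was lower (log2 fold change -0.37, edgeR unadjusted p = 0.0426, adjusted p = 0.495). Same-numbered libraries deviated from their group means with correlations of 0.158, 0.0624 and 0.168, and 5 of 6 libraries correlated best with their own number. As 1 of these correlations was under 0.1, the numbers were not taken to pair the libraries. Without metformin 1, or any other library, a group holds 2 libraries, and wide intervals such as that of Il2ra limit what these counts can show.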
